A study of Mus musculus with 10 samples.

Results

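The enzymes that write and keep DNA methylation, together with Tet2, which starts its removal, were followed in J1 mouse embryonic stem cells after depletion of subunits of the INO80 complex. The genes were Dnmt3a, Dnmt3b, Dnmt3l, Dnmt1, Uhrf1 and Tet2. They were chosen by name, and all probes carrying the name of 1 of them on the array, or its current symbol through the probe's RefSeq accession, were taken. All 6 were measured, by 10 probes in all, among the 20660 genes tested, and each of these probes was well above background on all 10 arrays. Tet2 is listed on the array under its older name E130014J05Rik.

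J1 is an established line of mouse embryonic stem cells. The cells were kept in ESGRO medium, moved to M15 medium for transfection, transfected with small interfering RNAs (siRNAs) and harvested 96 hours later (day 4). A non-targeting siRNA (NT) served as the control, and the other groups received siRNA against Ino80, Ino80b, Ino80c or Ino80e, with 2 arrays in each of the 5 groups. INO80 is a remodelling complex that moves and edits nucleosomes with the energy of ATP, and by the series title the study asked how it takes part in the network that keeps these cells self-renewing. Ino80 is the ATPase of the complex and the other targets are accessory subunits. The labels do not say how many siRNAs were used per target, all groups come from a single cell line, and the labels name no untransfected cells. DNA methylation itself was not measured on these arrays, which report RNA.

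In mammals, a methyl group is added to cytosines that precede guanines. Dnmt3a and Dnmt3b are the de novo methyltransferases, which write new marks, and Dnmt3l is a catalytically inactive relative that stimulates them. Dnmt1 copies the marks to the new strand at replication, and Uhrf1 brings it there by binding hemimethylated DNA and modified histone H3. Tet2, with Tet1, is the main oxidase of embryonic stem cells that turns 5-methylcytosine into 5-hydroxymethylcytosine, a first step of demethylation. Embryonic stem cells that leave the naive state for a primed state are known to raise Dnmt3a and Dnmt3b and to lower Tet2.

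Promoter sequences are shown for Tet2 and Dnmt3b, the members with calls in 3 knockdowns, and for Dnmt3l, as a promoter with a number of CG pairs near the median of all promoters. Each runs 5′ to 3′ from 250 bases before the annotated start to 30 bases after it (RefSeq, build GRCm38.p6), and capitals mark CG pairs, the pairs that DNA methyltransferases act on. The Tet2 window lies at chr3:133544361-133544640 on the minus strand, the Dnmt3b window at chr2:153649199-153649478 on the plus strand, and the Dnmt3l window, the first of 3 listed for it, at chr10:78042037-78042316 on the plus strand.
Tet2: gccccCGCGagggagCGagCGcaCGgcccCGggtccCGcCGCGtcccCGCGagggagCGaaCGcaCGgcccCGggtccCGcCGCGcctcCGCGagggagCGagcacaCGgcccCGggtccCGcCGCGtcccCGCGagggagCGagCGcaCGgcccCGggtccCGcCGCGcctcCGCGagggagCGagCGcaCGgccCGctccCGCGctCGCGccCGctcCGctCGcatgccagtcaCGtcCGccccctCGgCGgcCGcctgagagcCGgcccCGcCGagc
Dnmt3b: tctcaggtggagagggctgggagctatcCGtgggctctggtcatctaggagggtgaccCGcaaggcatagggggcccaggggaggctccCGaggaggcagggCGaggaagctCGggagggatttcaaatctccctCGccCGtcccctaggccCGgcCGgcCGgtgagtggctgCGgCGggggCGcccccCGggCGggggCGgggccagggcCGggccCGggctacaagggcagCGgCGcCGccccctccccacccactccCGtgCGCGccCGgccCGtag
Dnmt3l: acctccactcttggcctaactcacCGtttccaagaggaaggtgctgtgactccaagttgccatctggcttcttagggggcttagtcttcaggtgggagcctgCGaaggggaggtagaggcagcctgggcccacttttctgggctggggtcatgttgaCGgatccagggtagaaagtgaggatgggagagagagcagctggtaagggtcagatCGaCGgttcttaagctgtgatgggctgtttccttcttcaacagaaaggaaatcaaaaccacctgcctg
The Tet2 window held 56 CG pairs, the Dnmt3b window 26 and the Dnmt3l window 5, where the median of all 32851 windows of the same length was 6. At least 56 CG pairs were found in 0.07% of all windows, at least 26 in 13.8% and at least 5 in 59.6%. The windows of Dnmt3a held 43, 43 and 17 pairs, those of Dnmt1 2, 9 and 30, and those of Uhrf1 11 and 32. All 6 genes had at least 1 window in the RefSeq table.

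Of the probes, 2 match the genome over more than their own length, as a probe across spliced exons would, although this was not tested against exons. The Dnmt1 probe A_51_P195573 lies at chr9:20784085-20784453 on the minus strand and the Dnmt3a probe A_52_P76146 at chr12:3825243-3826024 on the plus strand, in the coordinates of the scanner files (build mm7). They are shown because of that longer span.
Dnmt1 A_51_P195573: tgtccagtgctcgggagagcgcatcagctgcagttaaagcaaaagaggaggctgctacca
Dnmt3a A_52_P76146: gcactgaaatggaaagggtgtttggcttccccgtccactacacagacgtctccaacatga
The other probes lie at chr2:153428204-153428263 (Dnmt3b, plus strand), chr10:77717971-77718030 (Dnmt3l, plus), chr12:3826602-3826661 and chr12:3830965-3831024 (Dnmt3a, plus). Those of Uhrf1 lie at chr17:54481483-54481542 and chr17:54481380-54481439 (plus), and those of Tet2 at chr3:133261322-133261381 and chr3:133263123-133263182 (minus). Exon annotation of that build was not used here, and the probes of a gene were not assigned to isoforms.

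In its own knockdown, each target was lower than NT on its brightest probe, at log2 fold changes of -1.20 (Ino80), -2.00 (Ino80b), -2.34 (Ino80c) and -1.21 (Ino80e), of which the last did not pass over all genes. With Ino80 siRNA, dimmer Ino80 probes were at -0.918 (limma, adjusted p = 0.0314 over all probes) and, without passing, -0.469 (0.109). With Ino80e siRNA the first of these was at -0.803 without passing (0.0883), and the other Ino80 probes were at -0.016 and 0.078. A dimmer Ino80c probe was at -1.625 with Ino80c siRNA (0.0214). Ino80b RNA was also at -1.11 in the Ino80c knockdown and at -1.39 in the Ino80e knockdown, which did not pass (adjusted p = 0.0886 and 0.0889). On single arrays, 66.4% to 79% of the probes were above background by the scanner's own criterion (well above background), no spot was saturated, and the number of arrays limits the precision. NT lay alone on slide 1, the Ino80 and Ino80b groups on slide 2 and the Ino80c and Ino80e groups on slide 3, so knockdown against NT and slide cannot be told apart. Only Ino80 against Ino80b and Ino80c against Ino80e are comparisons within a slide. The median of all genes was above NT by 0.16, 0.13, 0.26 and 0.19 (log2, in the order Ino80, Ino80b, Ino80c, Ino80e), and with scaling to each array's median by 0.05, 0.08, 0.01 and 0.09. Of the genes called, 61.7%, 60.1% and 76.2% were higher in the Ino80, Ino80b and Ino80c knockdowns, against 39%, 46.8% and 33.6% with median scaling and 59%, 38% and 27.9% on the authors' deposited value table. All 10 markers of embryonic stem cells were well above background on every array. Of 11 fibroblast markers tested, 9 to 11 were well above background, with a summed level, in units of the array's 75th percentile, of 30.9 to 32.7 in NT, 38 to 40.1 with Ino80 siRNA, 25.8 to 31.6 with Ino80b, 27 to 32 with Ino80c and 22.4 to 25.3 with Ino80e siRNA. RNA of a whole culture does not separate fewer cells of a type from less RNA per cell.

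Dnmt3b rose in the Ino80, Ino80b and Ino80c knockdowns and lay near NT in the Ino80e knockdown. Its log2 level, relative to the 75th percentile of the array, was 4.52 and 4.501 on the NT arrays. It was 5.20 and 5.20 with Ino80 siRNA, 5.01 and 5.11 in the Ino80b knockdown, 5.16 and 5.25 in the Ino80c knockdown, and 4.61 and 4.61 in the Ino80e knockdown. All 6 arrays of the first 3 knockdowns lay above all 4 arrays of NT and the Ino80e knockdown, and no group overlapped NT. Non-overlap with NT is common on these arrays, at 54.1%, 58.5%, 60.5% and 57.8% of all genes in the 4 knockdowns.

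In fold terms, Dnmt3b was 1.61-fold NT with Ino80 siRNA (a log2 fold change of 0.69 ± 0.11, standard error, n = 2 against 2, limma, Benjamini-Hochberg adjusted p = 0.0133). It was 1.47-fold NT in the Ino80b knockdown (0.55 ± 0.11, adjusted p = 0.0391) and 1.62-fold in the Ino80c knockdown (0.70 ± 0.11, adjusted p = 0.0258). In the Ino80e knockdown the change was 0.10 ± 0.11 (adjusted p = 0.578), with a 95% interval from -0.16 to 0.37, and it turned to -0.15 under quantile normalization and to -0.12 on the authors' deposited value table. Less the median of all genes, the changes were 0.53, 0.42, 0.44 and -0.08. By mean level the groups ran Ino80c, Ino80, Ino80b, Ino80e, NT from high to low, and no neighbours in that order passed the test (adjusted p = 0.98, 0.743, 0.148 and 0.578). Ino80b and Ino80e, which did not overlap, passed in 3 of 21 alternatives of the processing (adjusted p = 0.0305 to 0.616 over all). The call in the Ino80 knockdown was lost without NT replicate 2 or Ino80 replicate 2 (adjusted p = 0.0504 to 0.0631), the call in the Ino80b knockdown without any array other than NT replicate 1 (0.0509 to 0.238), and the call in the Ino80c knockdown without NT replicate 2 or any array of the Ino80b, Ino80c or Ino80e groups (0.0527 to 0.132). The fold changes themselves then moved little, with ranges of 0.68 to 0.70, 0.50 to 0.60 and 0.65 to 0.74.

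Dnmt3a, the other de novo enzyme, stood above NT on its brightest probe in the same 3 knockdowns and passed the test in the Ino80c knockdown. The level of that probe, A_52_P169048, was 1.97 and 2.37 in NT, 2.62 and 2.83 with Ino80 siRNA, 2.53 and 2.92 in the Ino80b knockdown, 2.95 and 3.30 in the Ino80c knockdown, and 2.28 and 2.45 in the Ino80e knockdown. The NT arrays lay apart from each other, the Ino80, Ino80b and Ino80c arrays all lay above them, and the Ino80e arrays overlapped them. Of all genes, 54.1%, 58.5% and 60.5% did not overlap NT in the Ino80, Ino80b and Ino80c knockdowns. The change was 0.55 ± 0.22 with Ino80 siRNA (adjusted p = 0.131), 0.55 ± 0.22 with Ino80b siRNA (adjusted p = 0.143), 0.95 ± 0.22 with Ino80c siRNA (1.94-fold, adjusted p = 0.0478) and 0.20 ± 0.22 with Ino80e siRNA (adjusted p = 0.578).

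The other probes of Dnmt3a did not single out the Ino80c knockdown. Probe A_52_P76146, shown above, changed by 0.61, 0.60, 0.55 and -0.22 in the 4 knockdowns, and probe A_52_P30497 by 0.63, 0.40, 0.42 and -0.04. None of these values was called when all 29586 probes were tested singly (11.7%, 5.7%, 4.78% and 0% of probes called in the 4 knockdowns), and neither was the brightest probe in the Ino80c knockdown (adjusted p = 0.0524). The Dnmt3a call was lost without any of the 10 arrays (adjusted p = 0.0565 to 0.191, log2 fold change 0.75 to 1.16) and with the mean of its probes (0.64). The direction in the Ino80, Ino80b and Ino80c knockdowns was the same on all 3 probes, whereas in the Ino80e knockdown the probes disagreed in sign.

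Dnmt3l, the cofactor without catalytic activity, was not called in any knockdown. Its level was 6.19 and 6.01 in NT, 6.01 and 5.51 with Ino80 siRNA, 6.40 and 6.25 in the Ino80b knockdown, 6.67 and 6.25 in the Ino80c knockdown, and 6.22 and 5.88 in the Ino80e knockdown. The changes were -0.33, 0.23, 0.37 and -0.05, each ± 0.23, with adjusted p = 0.355, 0.538, 0.3 and 0.913. Dnmt3l was lower with Ino80 siRNA than with Ino80b siRNA by 0.56 (same slide, adjusted p = 0.536) and than with Ino80c siRNA by 0.70 (adjusted p = 0.225), which did not pass. The 95% intervals against NT reached from -0.87 to 0.20 in the Ino80 knockdown and from -0.17 to 0.90 in the Ino80c knockdown, and the latter holds the change of Dnmt3b there.

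**Figure D1:**
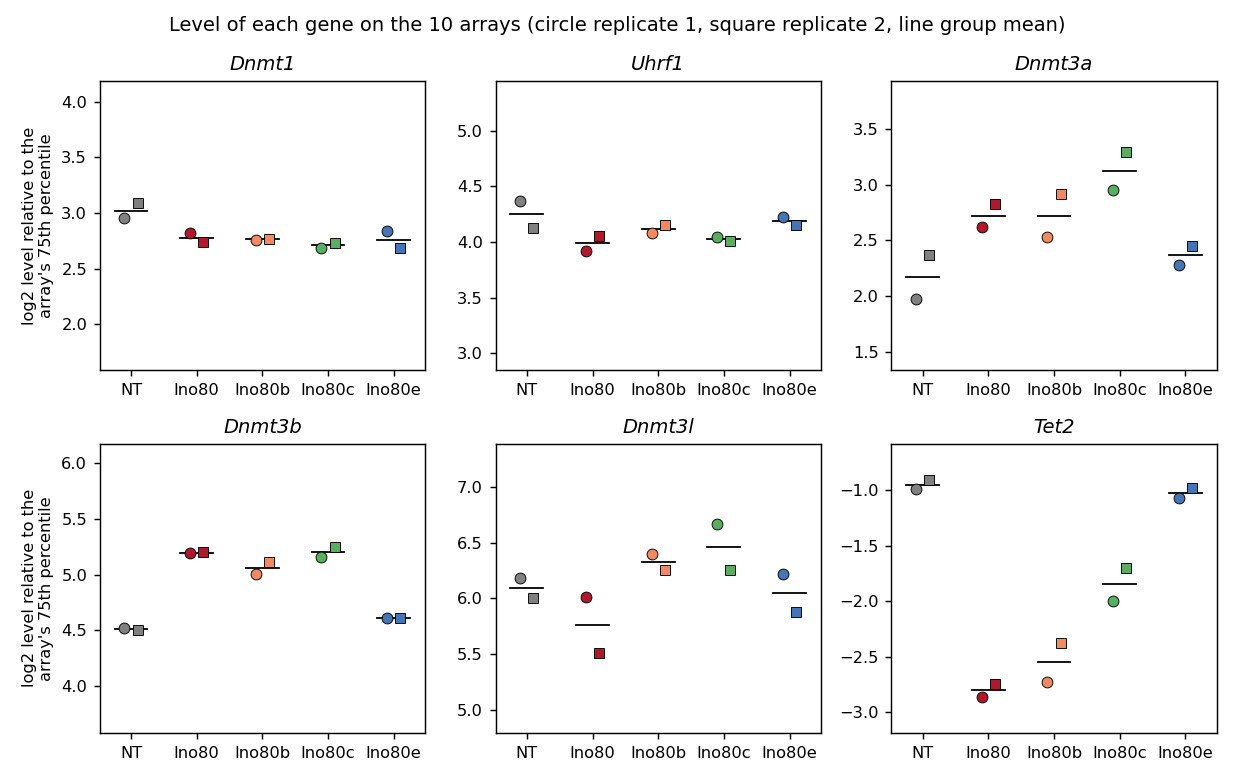
Log2 level of the 6 genes relative to the 75th percentile of each array, on the brightest probe of each gene, for the 5 siRNA groups. Circles are replicate 1, squares replicate 2 and lines the mean of 2 arrays, and each panel spans the same range in log2 units. Dnmt3b is high in the Ino80, Ino80b and Ino80c groups (5.01 to 5.25) and Tet2 is low there (-2.86 to -1.70), while the Ino80e arrays sit beside NT for both genes.

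Dnmt1, the maintenance methyltransferase, stood slightly below NT in all 4 knockdowns without passing the test. Its level was 2.95 and 3.09 in NT, 2.82 and 2.74 with Ino80 siRNA, 2.76 and 2.77 in the Ino80b knockdown, 2.69 and 2.73 in the Ino80c knockdown, and 2.84 and 2.69 in the Ino80e knockdown. Every knockdown array lay below both NT arrays, where 54.1%, 58.5%, 60.5% and 57.8% of all genes did not overlap NT. The changes were -0.24, -0.26, -0.31 and -0.26 (each ± 0.12, adjusted p = 0.225, 0.21, 0.141 and 0.209), or 80.7% to 84.7% of NT. The knockdowns differed from one another by at most 0.07 (adjusted p = 0.84 to 0.995). Since NT alone lay on slide 1, a value below NT in every other group cannot be told apart from a difference between slides.

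Uhrf1, the partner that recruits Dnmt1, was also not called in any knockdown. Its brightest probe stood at 4.37 and 4.13 in NT, 3.92 and 4.06 with Ino80 siRNA, 4.08 and 4.15 in the Ino80b knockdown, 4.04 and 4.01 in the Ino80c knockdown, and 4.22 and 4.15 in the Ino80e knockdown. The Ino80 and Ino80c arrays lay below both NT arrays (54.1% and 60.5% of all genes did not overlap NT there) and the other groups overlapped NT. The changes were -0.26, -0.13, -0.23 and -0.06 on this probe and -0.43, -0.29, -0.35 and -0.23 on probe A_51_P491742, with adjusted p from 0.0837 to 0.79 over both probes. The 95% interval of the brightest probe in the Ino80 knockdown, -0.57 to 0.05, leaves room for a fall to 67.4% of NT. On probe A_51_P491742 the interval was -0.747 to -0.108 in the Ino80 and -0.669 to -0.03 in the Ino80c knockdown. Both lay below 0, although neither change passed after adjustment.

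Tet2 fell in the Ino80, Ino80b and Ino80c knockdowns and had the largest change of the 6 genes in the first 2 of these. In the Ino80c knockdown Dnmt3a changed by as much (0.95 against -0.90 for Tet2). On its brightest probe, A_51_P340083, the level was -0.995 and -0.91 in NT and -1.07 and -0.98 with Ino80e siRNA. It was -2.86 and -2.74 with Ino80 siRNA, -2.73 and -2.38 in the Ino80b knockdown, and -1.99 and -1.70 in the Ino80c knockdown. The Ino80 arrays were the lowest, the Ino80b arrays lay between them and the Ino80c arrays, and the arrays of these 3 groups lay below all NT and Ino80e arrays. Non-overlap with NT held for 54.1%, 58.5% and 60.5% of all genes in these 3 groups.

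Tet2 stood at 27.8% of NT with Ino80 siRNA (a log2 fold change of -1.85 ± 0.17, adjusted p = 0.00269, 95% interval 21.2% to 36.5%). It stood at 33.1% in the Ino80b knockdown (-1.60 ± 0.17, adjusted p = 0.0137, interval 25.2% to 43.3%) and at 53.8% in the Ino80c knockdown (-0.90 ± 0.17, adjusted p = 0.0327, interval 41% to 70.5%). In the Ino80e knockdown it was at 95.1% (-0.07 ± 0.17, adjusted p = 0.805, interval 72.5% to 125%). From high to low the groups ran NT, Ino80e, Ino80c, Ino80b, Ino80, and no neighbours in that order passed the test (adjusted p = 0.805, 0.135, 0.273 and 0.692). Ino80c and Ino80e, which did not overlap, passed in 2 of 21 alternatives (adjusted p = 0.0392 to 0.58 over all).

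The second Tet2 probe, A_52_P502083, was also lower in these 3 knockdowns. Its level was -2.17 and -2.05 in NT, -3.55 and -3.47 with Ino80 siRNA, -3.48 and -3.63 in the Ino80b knockdown, -3.61 and -3.11 in the Ino80c knockdown, and -2.69 and -2.88 in the Ino80e knockdown. The changes were -1.40, -1.44 and -1.25 in the Ino80, Ino80b and Ino80c knockdowns (adjusted p = 0.0078, 0.016 and 0.0282 over all probes). In the Ino80e knockdown this probe lay 0.67 below NT without overlap (adjusted p = 0.0955), whereas the brightest probe overlapped NT there. The graded order Ino80, Ino80b, Ino80c of the brightest probe was not repeated by the second, on which those groups differed by at most 0.20 (adjusted p = 0.768 to 0.961).

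The call of Tet2 in the Ino80 knockdown remained without each of the 10 arrays in turn. In the Ino80b knockdown it was lost without NT replicate 2 or either Ino80b array (adjusted p = 0.0635 to 0.0822, log2 fold change -1.77 to -1.42). In the Ino80c knockdown it was lost without NT replicate 2 or any array of the Ino80b, Ino80c or Ino80e groups (adjusted p = 0.0516 to 0.16, log2 fold change -1.04 to -0.75). Markers of primitive endoderm, the extraembryonic lineage marked by Gata4, Gata6, Sox17, Sox7, Dab2 and Pdgfra, were also lowest with Ino80 and Ino80b siRNA. Of these 6 markers, 6 were lower in the Ino80 knockdown (4.77% of all genes fell), 5 in the Ino80b knockdown (2.58%) and 0 in the others (1.52% and 0%; limma, 2 at unadjusted p under 0.05 in each). Their summed level, in units of the array's 75th percentile, was 2.52 to 2.86 in NT, 0.727 to 0.735 with Ino80 siRNA, 0.994 to 1 in the Ino80b, 1.89 to 2.35 in the Ino80c and 3.17 to 3.82 in the Ino80e knockdown. At least 5 of the 6 were well above background on every array. Their part in the Tet2 result was not tested.

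**Figure D2:**
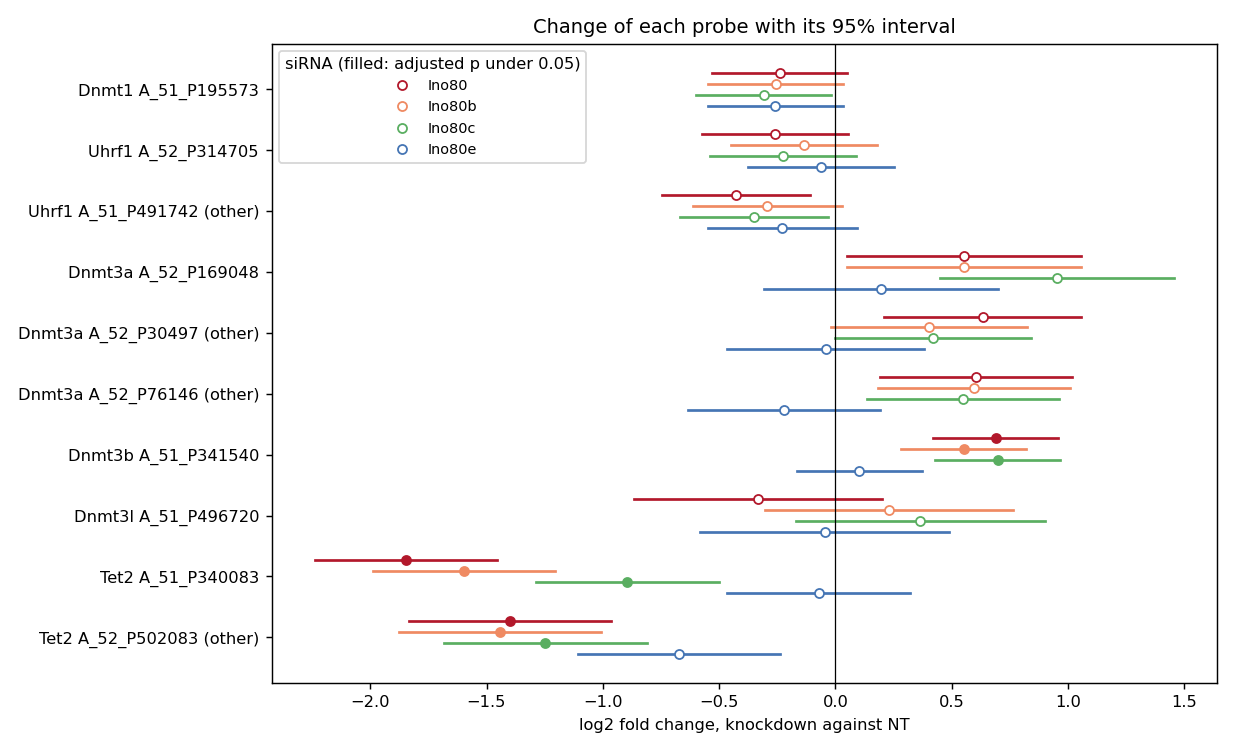
Log2 fold change against NT of all 10 probes of the 6 genes, with 95% intervals from the fit of all probes, coloured by siRNA. Filled points have an adjusted p under 0.05 over all probes and "other" marks the dimmer probes of a gene. Both Tet2 probes and the Dnmt3b probe are filled for the Ino80, Ino80b and Ino80c knockdowns, and no Dnmt1, Uhrf1, Dnmt3a or Dnmt3l probe is.

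Counted over the 6 genes, 2 were called in the Ino80 knockdown (Dnmt3b higher, Tet2 lower), where 12.4% of all genes were called, 7.68% higher and 4.77% lower. In the Ino80b knockdown 2 were called (Dnmt3b higher, Tet2 lower), where 6.49% of all genes were called, 3.9% higher and 2.58% lower. In the Ino80c knockdown 3 were called (Dnmt3b and Dnmt3a higher, Tet2 lower), where 6.37% of all genes were called, 4.85% higher and 1.52% lower. In the Ino80e knockdown 0 were called by limma, and 0 had an unadjusted p under 0.05, where 0.00484% of all genes were called. That background depends on the processing, since 4335 genes were called higher and 767 lower with Ino80e siRNA after normexp background correction, and 236 and 868 on the authors' deposited value table, and 0 of the 6 genes were called in either. The median log2 fold change of the 6 genes was -0.25, 0.05, 0.07 and -0.05 in the 4 knockdowns, below the median of all genes in each. The NT arrays are shared by the 4 comparisons, so the calls in different knockdowns are not independent.

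The knockdowns were also compared with one another, which leaves the NT arrays out of the difference. Between the Ino80 and Ino80e knockdowns 2 of the 6 genes were called, where 3.13% of all genes were. Dnmt3b was higher with Ino80 siRNA by 0.59 ± 0.11 (adjusted p = 0.0426) and Tet2 was lower (-1.78 ± 0.17, adjusted p = 0.00559). Between the Ino80b and Ino80e knockdowns 1 was called, where 0.682% of all genes were, and this was Tet2 (-1.53 ± 0.17, adjusted p = 0.016). The Dnmt3b call was lost without any array of the 4 knockdown groups (adjusted p = 0.0861 to 0.252, log2 fold change 0.58 to 0.59), the Tet2 call against Ino80e in the Ino80 knockdown without Ino80e replicate 2 (adjusted p = 0.064), and that in the Ino80b knockdown without any Ino80b or Ino80e array (0.0809 to 0.149). On the second Tet2 probe the differences from the Ino80e knockdown were -0.72 and -0.77 and did not pass (adjusted p = 0.0924 and 0.14).

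Within slide 3, Dnmt3b was higher in the Ino80c than in the Ino80e knockdown by 0.60 ± 0.11 (adjusted p = 0.114), Tet2 was at -0.82 ± 0.17 (adjusted p = 0.135) and Dnmt3a at 0.76 ± 0.22 (adjusted p = 0.249). The groups did not overlap for any of these genes, as for 46.1% of all genes in this pair, and none passed over all genes, where 0.0339% were called. Unadjusted, 3 of the 6 genes had p under 0.05 in this pair, and the share of all genes at that threshold is not given. Within slide 2, Ino80 and Ino80b siRNA differed by 0.14 ± 0.11 for Dnmt3b (95% interval -0.13 to 0.40) and by -0.25 ± 0.17 for Tet2 (-0.64 to 0.14), with 0 of the 6 genes called by limma, 1 at unadjusted p under 0.05, and 0.0678% of all genes called. In the remaining pairs 0 were called too, with 2 genes at unadjusted p under 0.05 for Ino80 against Ino80c (1.03% of all genes called) and 1 for Ino80b against Ino80c (0.029%). Tet2 between Ino80 and Ino80c came nearest, at -0.95 ± 0.17 (adjusted p = 0.0542).

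**Figure D3:**
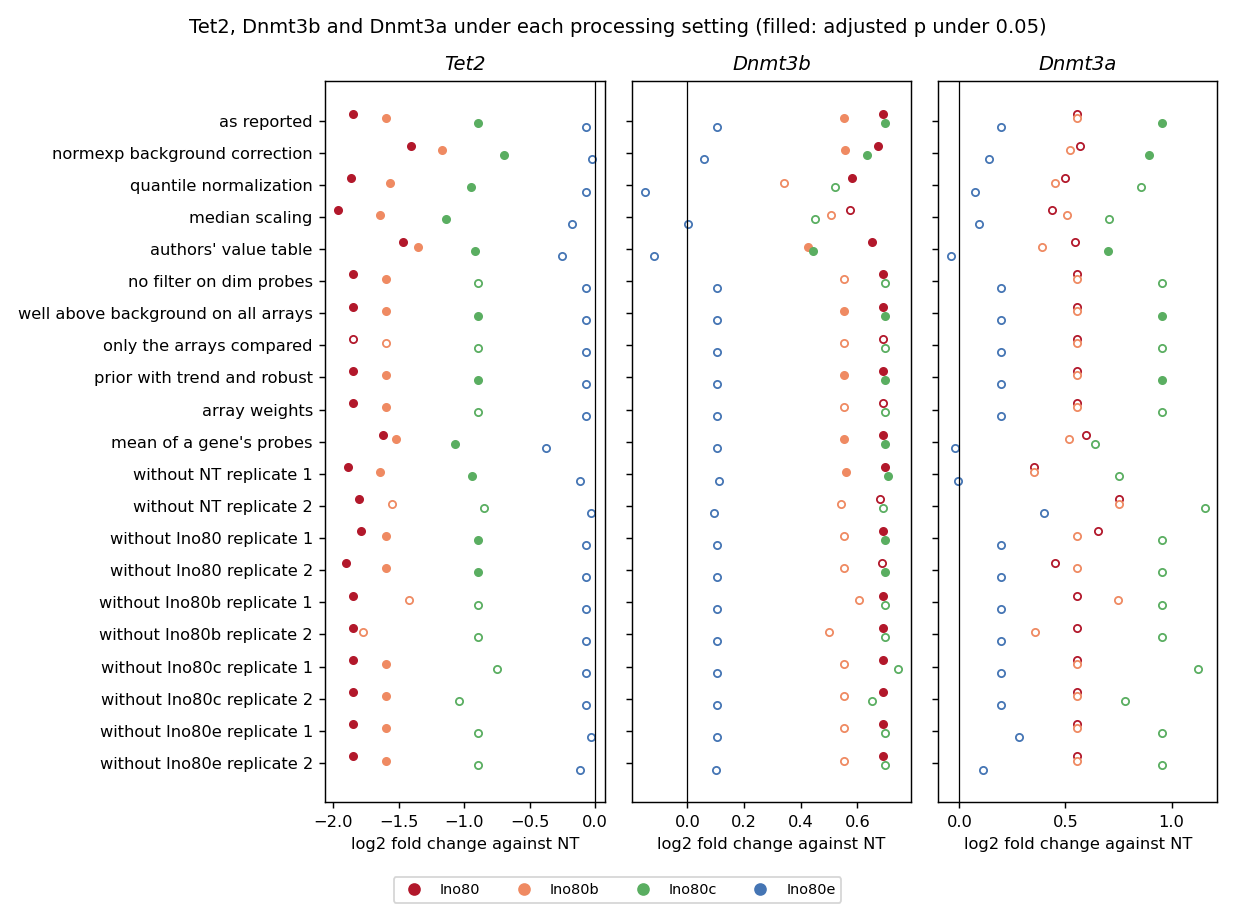
Log2 fold change against NT of Tet2, Dnmt3b and Dnmt3a under each processing alternative other than the replicate block, coloured by siRNA, with filled points for an adjusted p under 0.05. Tet2 in the Ino80 knockdown ranges from -1.96 to -1.41 and is unfilled for the arrays compared alone. The Dnmt3b points of the Ino80, Ino80b and Ino80c knockdowns and the Dnmt3a points with Ino80c siRNA are unfilled under several settings. Dnmt3a with Ino80 and Ino80b siRNA is unfilled in every setting shown. All these points stay above 0, whereas Dnmt3b and Dnmt3a with Ino80e siRNA change sign between settings.

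For the 3 genes with a call, the genes of nearest profile were found by the root mean square difference of log2 levels, each centred on its own mean, over the 10 arrays. Nearest to Tet2 were Gli2, a transcription factor of Hedgehog signalling (0.12), Phf11d (0.17) and Smarcd3, a BAF remodelling subunit (0.18), and 0.0194% of all genes lay within 0.2 of it. Gli2 changed by -1.89, -1.61, -1.11 and -0.26 in the Ino80, Ino80b, Ino80c and Ino80e knockdowns. Nearest to Dnmt3b were BE985382 (0.07), Crim1 (0.08) and Gtl2, the imprinted long RNA also called Meg3 (0.08), with 2.46% of all genes within 0.2. Nearest to Dnmt3a were Ssbp2 (0.09), Lgals3bp (0.10) and Depdc6 (0.11), with 0.397% within 0.2. The likeness describes these arrays, which share the slides and the NT group.

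Other genes of the methylation pathway were read from lists by role. Among 12 genes of oxidation and base repair that were tested, 1 fell in the Ino80b knockdown, where 2.58% of all genes fell. In the Ino80, Ino80c and Ino80e knockdowns 0 changed (limma, 5, 3 and 3 at unadjusted p under 0.05). Of all genes, 12.4%, 6.37% and 0.00484% were called there. The gene that fell was Cxxc5 (-0.66, adjusted p = 0.0392), named after its values were seen. Its dimmer probe was called lower with both Ino80 and Ino80b siRNA (-0.76 and -0.88, adjusted p = 0.0376 and 0.0392 over all probes). Tet1, the other main oxidase of these cells, was at -0.68, -0.57, -0.56 and -0.59 in the 4 knockdowns and was not called (adjusted p = 0.114 to 0.173). Its level was 1.32 and 1.33 in NT and 0.41 to 1.03 on the 8 knockdown arrays, all below NT. In the 4 knockdowns 54.1%, 58.5%, 60.5% and 57.8% of all genes did not overlap NT, which lay alone on its slide. Tet3 was at 0.27, 0.22, 0.34 and -0.07 (adjusted p = 0.453 to 0.896). Less the median of all genes, the median of this list was -0.33, -0.15, -0.36 and -0.29.

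In the list of factors that protect or guide methylation, 3 of 10 genes fell and 1 rose in the Ino80 knockdown (4.77% of all genes fell and 7.68% rose), 2 fell in the Ino80b (2.58%) and 2 in the Ino80c knockdown (1.52%), and 0 changed in the Ino80e knockdown (limma, 8 at unadjusted p under 0.05). Low unadjusted p-values were common with Ino80e siRNA, where 0.0702 for Dnmt1 became no more than 0.209 after adjustment (limma). The share of all genes under 0.05 unadjusted is not given, so the 8 is not read as a result. Zfp57, a zinc finger protein that keeps imprints methylated, had a level of 1.59 and 1.97 in NT and fell to -0.58 and -1.32 with Ino80 siRNA. Its change was -2.73 ± 0.30 with Ino80 siRNA (adjusted p = 0.0043), -2.32 with Ino80b (0.0144), -1.91 with Ino80c (0.0253) and -1.35 with Ino80e siRNA (0.0815). Kdm2b, which binds unmethylated CG islands, fell by 0.80, 0.84 and 0.66 on the log2 scale (adjusted p = 0.0193, 0.0293 and 0.0484) and was at -0.53 with Ino80e siRNA (0.0979). Over all probes this probe did not pass with Ino80c siRNA (0.0539). A dimmer Kdm2b probe was called in the Ino80, Ino80b and Ino80c knockdowns (-0.899, -0.994 and -0.916). Another was called in none of them (-0.353, -0.502 and -0.338, adjusted p = 0.346, 0.206 and 0.357). The Zfp57 call remained in the Ino80 knockdown without each array in turn. It was lost in the Ino80b knockdown without NT replicate 2 or either Ino80b array (0.0713 to 0.113), and in the Ino80c knockdown without NT replicate 2 or any Ino80c or Ino80e array (0.0521 to 0.123). The Kdm2b calls were lost without NT replicate 2 and, in the Ino80 knockdown, without Ino80 replicate 2 (0.0769 to 0.0944). In the Ino80b knockdown they were also lost without any Ino80b, Ino80c or Ino80e array (0.0509 to 0.198), and in the Ino80c knockdown without any array but NT replicate 1 (0.0532 to 0.179). Trim28, the corepressor that Zfp57 recruits, fell by 0.84 with Ino80 siRNA (adjusted p = 0.0246) and is named after its values were seen. Dppa3, which shields the maternal genome from oxidation, rose with Ino80 siRNA by 1.42 ± 0.37 (adjusted p = 0.0486). This call was lost without any of the 10 arrays (log2 fold change 1.062 to 1.782), and near-identical Dppa3 copies could share its signal. With Ino80b, Ino80c and Ino80e siRNA Dppa3 was at 1.03, 1.075 and 1.316 without passing (adjusted p = 0.123, 0.112 and 0.0965 over all probes). Its level was -1.528 and -0.984 in NT and -0.495 to 0.526 on the knockdown arrays, all above NT. Of all genes, 54.1% to 60.5% did not overlap NT in the knockdowns. NT lay alone on its slide, so a value above NT in every other group cannot be told apart from a difference between slides. The list median, less that of all genes, was -0.51, -0.06, -0.44 and -0.29. With median scaling the counts were 0 higher and 3 lower, 0 and 2, 0 and 3, and 0 and 0. Of all 20660 genes, 598 were then higher and 937 lower, 321 and 365, 178 and 351, and 0 and 0.

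Among 7 tested transcription factors known to act on these genes in stem cells, 4 fell and 1 rose in the Ino80 knockdown (4.77% of all genes fell and 7.68% rose), 4 fell and 1 rose in the Ino80b knockdown (2.58% and 3.9%), 3 fell in the Ino80c knockdown (1.52%) and 0 changed in the Ino80e knockdown (limma, 1 at unadjusted p under 0.05). Nanog, the pluripotency factor, changed by -1.35, -1.26 and -1.05 (adjusted p = 0.0108, 0.023 and 0.0357), and was at -0.31 with Ino80e siRNA. Its level was 2.98 and 3.44 in NT, 1.73 to 2.25 on the arrays of the first 3 knockdowns, and 2.80 and 3.003 with Ino80e siRNA. Esrrb changed by -1.61, -1.49 and -1.35 and Tfcp2l1, a factor of the naive state, by -2.12, -1.46 and -1.12, each called in these 3 knockdowns. A dimmer Esrrb probe changed by less, at -0.658, -0.925 and -0.665, and was not called (adjusted p = 0.111, 0.0623 and 0.12 over all probes). The dimmer probes of Tfcp2l1 were called lower in each of these knockdowns. Pou5f1, the core factor Oct4, fell by 0.74 and 0.71 with Ino80 and Ino80b siRNA (adjusted p = 0.0247 and 0.0421). Otx2, a factor of the primed epiblast, rose by 1.17 with Ino80 siRNA (adjusted p = 0.00441) and 0.61 with Ino80b siRNA (0.0413). The median of these factors, less that of all genes, was -0.91, -0.84, -0.83 and -0.31. Earlier results of these data already showed several of these genes, so the list is no independent evidence. The calls of Nanog, Tfcp2l1 and Otx2 in the Ino80 knockdown remained without each array in turn, while that of Otx2 in the Ino80b knockdown was lost without any of the 10 (adjusted p = 0.0542 to 0.22). Without NT replicate 2, Nanog and Tfcp2l1 lost their calls in the Ino80b and Ino80c knockdowns, Esrrb lost all 3 and Pou5f1 both. These calls were also lost without either array of the knockdown in question, and in the Ino80c knockdown and for Nanog, Esrrb and Pou5f1 in the Ino80b knockdown without an Ino80e array, and in several cases without other single arrays. Over all such losses of these 4 genes the adjusted p was 0.0503 to 0.176.

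Germline genes whose promoters are silenced by DNA methylation in somatic cells formed the longest list, with 18 genes tested. In the Ino80 knockdown 4 rose (7.68% of all genes rose), in the Ino80b knockdown 2 (3.9%), in the Ino80c knockdown 5 (4.85%) and in the Ino80e knockdown 0 (limma, 8 at unadjusted p under 0.05), and none of the 18 fell on its brightest probe. Here too the share of all genes at that unadjusted threshold is not given, and the 8 is not read as a result. A dimmer probe of Hormad1, a protein of meiotic chromosomes named after its values were seen, was lower with Ino80 siRNA (-1.275, adjusted p = 0.0192 over all probes) and Ino80b siRNA (-1.031, 0.0492). With median scaling 2, 1, 2 and 0 rose, and in the Ino80e knockdown 6 rose with normexp and 2 on the authors' deposited values. Of all 20660 genes, 598, 321, 178 and 0 rose with median scaling. In the Ino80e knockdown 4335 of all genes rose with normexp and 236 on the deposited values. In each of the 4 knockdowns 1 of the 18 fell under at least 1 of normexp, quantile normalization and the deposited values. Tdrd1, a protein of the piRNA pathway, stood at -0.43 and -0.83 in NT and at 0.95 and 1.14 with Ino80 siRNA. It rose by 1.67, 1.296 and 1.19 in the Ino80, Ino80b and Ino80c knockdowns (adjusted p = 0.00387, 0.0151 and 0.0242) and was at 0.92 with Ino80e siRNA (0.0761). A dimmer Tdrd1 probe was called with Ino80 siRNA only (1.253, adjusted p = 0.0125 over all probes). That probe was at 0.473, 0.345 and 0.153 in the Ino80b, Ino80c and Ino80e knockdowns (adjusted p = 0.158, 0.264 and 0.634). Ddx4, the germ cell helicase Vasa, rose by 1.34 with Ino80 siRNA and 1.01 with Ino80c siRNA, and Taf7l, a germ cell transcription factor subunit, by 0.94 and 1.31. Slc25a31, the testis ADP/ATP carrier, rose by 0.57 and 0.78 in the same 2 knockdowns. Dpep3, a testis dipeptidase, rose by 1.07 and 1.38 in the Ino80b and Ino80c knockdowns, and was at 1.59 with Ino80e siRNA without passing (adjusted p = 0.0696). The calls of Slc25a31 in the Ino80 and of Dpep3 in the Ino80b knockdown were lost without any of the 10 arrays. Of the other calls of these 5 genes, that of Tdrd1 in the Ino80 knockdown remained without each array in turn. All the rest were lost without NT replicate 2 and without replicate 2 of the knockdown in question. Those in the Ino80b and Ino80c knockdowns were also lost without replicate 1 of that knockdown. With Ino80c siRNA, the calls of Tdrd1, Dpep3, Ddx4 and Slc25a31 were lost without either Ino80e array too, and those of Ddx4 and Slc25a31 without either Ino80b array. The list median lay 0.21, 0.07, 0.27 and 0.21 above that of all genes.

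The remaining lists held few calls. Of all genes, 7.68% rose and 4.77% fell in the Ino80 knockdown, and 6.49%, 6.37% and 0.00484% were called in the Ino80b, Ino80c and Ino80e knockdowns. Of 6 partners of maintenance methylation, 1 rose in the Ino80 knockdown and 0 changed in the others (limma, 1, 0 and 1 at unadjusted p under 0.05). The gene was Uhrf2, the paralogue of Uhrf1 (0.56, adjusted p = 0.0414). A dimmer Uhrf2 probe was called higher with Ino80 and Ino80c siRNA (0.896 and 0.67, adjusted p = 0.00935 and 0.037 over all probes). Another dimmer probe was called in neither (0.415 and 0.868, adjusted p = 0.222 and 0.0582). Of 8 readers of methylated DNA, 1 rose in the Ino80 knockdown and 0 in the others (2, 1 and 4 at unadjusted p under 0.05). This was Zbtb4, a zinc finger protein that binds methylated DNA (1.503, adjusted p = 0.00876). Its dimmer probe was called higher too (1.412, adjusted p = 0.0203 over all probes). Of 12 genes of methyl donor synthesis, 1 fell in the Ino80 knockdown and 0 changed in the others (2 in each at unadjusted p under 0.05). Mtrr, which reactivates methionine synthase, fell by 0.48 (adjusted p = 0.0453). Its dimmer probes were lower without passing (-0.2 and -0.483, adjusted p = 0.609 and 0.147 over all probes). Uhrf2, Zbtb4 and Mtrr are named after their values were seen.

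**Figure D4:**
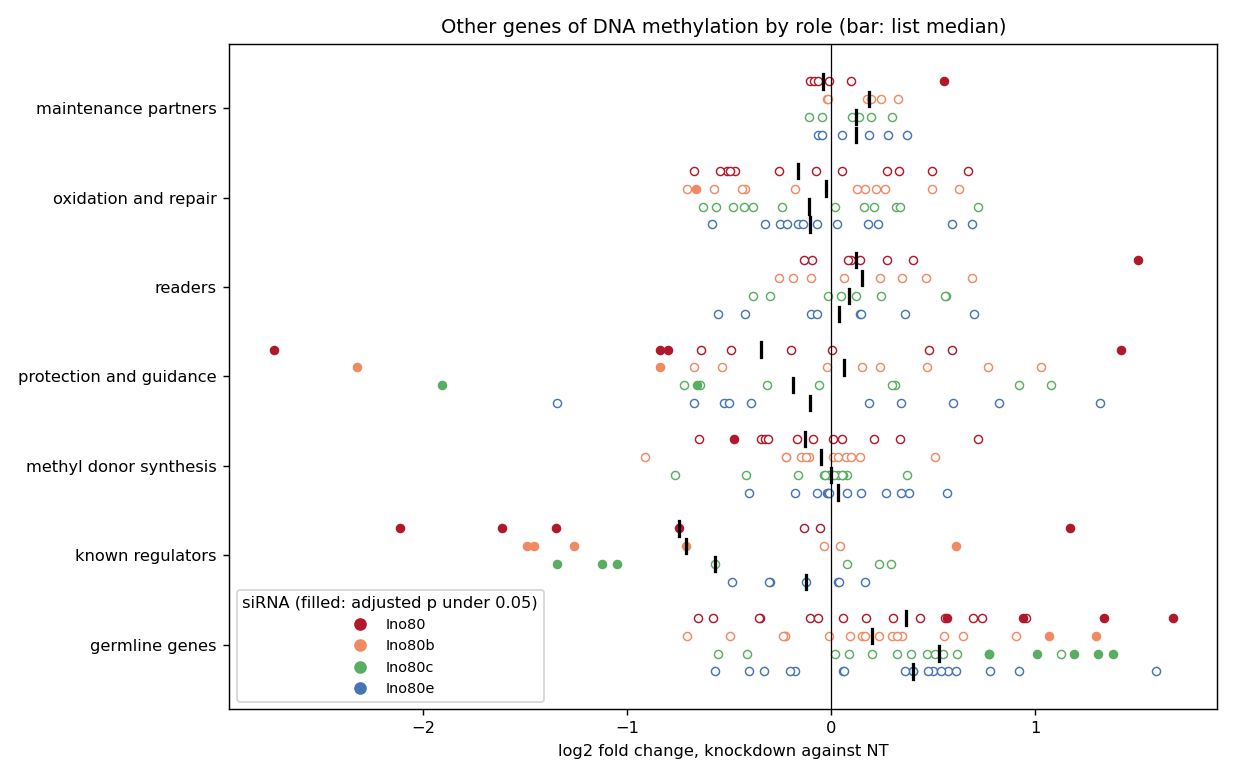
Log2 fold change against NT of the tested genes of the 7 lists by role, with a row of points per knockdown and a bar at each list median. Filled points have an adjusted p under 0.05. Zfp57 lies farthest to the left (-2.73 with Ino80 siRNA), 4 regulators lie at or below -0.71 with Ino80 and with Ino80b siRNA, and filled germline genes lie to the right of 0.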

How the data were processed

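Expression was measured on 10 single-colour Agilent arrays, grouped by the sample labels. Per the file headers, each deposited scanner file gives intensity values, of which the processed signal has had background removed and trends across the array corrected. The labels name the dye Cy5, whereas the files hold the green channel. The table of values deposited by the authors is on the log2 scale, uncentred, and matched the scanner's log2 mean signal up to 1 constant per array, with column medians from 6.77 to 6.87. How that scaling between arrays was set is unknown.

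Flagged spots were left out, spots of a probe were averaged, and the array's 75th percentile was subtracted from the log2 processed signal. Probes were kept where 1 or more groups had both arrays well above background, and a gene was read from its brightest kept probe. Probes were named through RefSeq accessions (22951 of 41174) or else by the array's name. limma 3.58.1 (R 4.3.3, data.table version 1.17.8) was fitted on all 10 arrays with group as the only term. P-values are two-sided, adjusted by Benjamini-Hochberg over 20660 genes, and called under 0.05. Counts at unadjusted p under 0.05 stand without the share of all genes at that threshold and are not read as results. The fit was tested on simulated data. The design text calls the 2 samples of a group biological replicates, and p-values measure the spread between these samples only. Genes named are the 6 members, list genes called in at least 2 knockdowns, Tet1, Tet3 and Dppa3, and the 3 nearest profiles of each called member. Other genes are marked as named after their values were seen. The members and lists were chosen with earlier results of these data known. In all, 21 alternatives were tried. Of the listed genes, Prdm14 and 1 germline gene were not matched to a probe, and Cxxc4 and 1 germline gene did not pass the filter. From each of the oxidation and donor lists 1 gene is not reported here and was left out of the count and median.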

Additional observations from a re-analysis of the deposited data

How the results depend on the processing

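Over 21 alternatives, no called difference reversed. The number of the 6 genes called was 2 (Ino80), 2 (Ino80b), 3 (Ino80c) and 0 (Ino80e) against NT and 3 between knockdowns. In that order it was 2, 2, 4, 0 and 7 with normexp, 2, 1, 1, 0 and 3 with quantile normalization, 1, 1, 1, 0 and 2 with median scaling, and 2, 2, 5, 0 and 6 in the authors' deposited table. It was 2, 1, 0, 0 and 2 without a filter, 2, 2, 3, 0 and 4 with probes well above background on all arrays, 0, 0, 0, 0 and 0 with only the arrays compared (fewer samples in each fit), 2, 2, 3, 0 and 5 with a trended robust prior, 1, 1, 0, 0 and 5 with array weights, and 2, 2, 2, 0 and 3 with the mean of a gene's probes. Without 1 array it ranged from 1 to 2, 0 to 2, 0 to 2, 0 to 0 and 0 to 3. The calls among all 20660 genes moved with the setting too. With Ino80c siRNA, 1003 genes were higher and 313 lower in the main processing, and 3216 and 982 with normexp. They were 533 and 452 with quantile normalization, 178 and 351 with median scaling, and 619 and 1599 on the authors' deposited values. With Ino80 siRNA they went from 1586 and 985 to 2319 and 1505 with normexp, where 2 of the 6 genes stayed called. Apart from the fits with fewer samples, the cause of the different counts was not tested.

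The replicate numbers were not taken to pair the arrays, since the correlation of replicate 1 deviations did not exceed 0.1 in every pair of groups (8 of 10, 0.004 to 0.321). With the replicate number as a block, 3, 3, 3 and 0 genes were called against NT and 8 between knockdowns, and Dnmt3a was then called with Ino80 and Ino80b siRNA too (adjusted p = 0.0178 and 0.026).

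Tet2 was called in 20, 17 and 11 alternatives in the Ino80, Ino80b and Ino80c knockdowns, Dnmt3b in 16, 7 and 9, and Dnmt3a with Ino80c siRNA in 5. Dnmt1 and Uhrf1 were called with Ino80c siRNA in 2 and 1.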

Other observations

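A predicted gene beside Dnmt3b, listed as LOC668932 (A_52_P666998, chr2:153460147-153460206, plus strand, build mm7), was well above background on 1 of 10 arrays and did not enter the tests.

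Trophectoderm markers, read for other cell types, had 3 of 5 tested genes higher in the Ino80 knockdown, 0 in the Ino80b, 1 in the Ino80c and 0 in the Ino80e knockdown, where 7.68%, 3.9%, 4.85% and 0.00484% of all genes were higher (limma, 2, 1 and 1 at unadjusted p under 0.05 in the last 3). Their summed level, in units of the array's 75th percentile, was 8.28 to 9.97 in NT, 17.9 to 18.8 with Ino80 siRNA, 12.1 to 12.4 with Ino80b, 8.48 to 9.29 with Ino80c and 10.5 to 12.3 with Ino80e siRNA. Of 11 fibroblast markers, 5, 2, 3 and 0 were higher in the 4 knockdowns (limma, 1 at unadjusted p under 0.05 with Ino80e siRNA). Of 10 embryonic stem cell markers, 5, 3, 2 and 0 were lower, where 4.77%, 2.58%, 1.52% and 0% of all genes were (3 at unadjusted p under 0.05 with Ino80e siRNA).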
